A study of Mus musculus with 6 samples.

Results

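miR-199 and miR-214 are microRNAs of mesenchymal cells, the lineage that gives rise to osteoblasts. They were followed here in extracellular vesicles shed by apoptotic osteoblasts. The members are every entry of the deposited table named miR-199a, miR-199b or miR-214 with any arm suffix. There were 5 of them among 1712 entries, of which 1528 carried a mouse miRNA name: mmu-miR-199a-5p, mmu-miR-199b-5p, mmu-miR-199b-3p, mmu-miR-214-3p and mmu-miR-214-5p, written below without the mmu- prefix. Of the 6 names asked for, miR-199a-3p matched no entry name. The knockout group was vesicles from Prx1cre;SIRT6f/f mice (n = 3 libraries), and the control group was vesicles from SIRT6f/f mice (n = 3 libraries). Both groups carry floxed alleles of Sirt6, a NAD-dependent deacetylase, and Cre under the Prx1 enhancer acts in limb bud mesenchyme. The controls carry no Cre, so Cre itself and the loss of Sirt6 cannot be told apart. Osteoblasts near confluence were made apoptotic and kept 48 h without serum, and vesicles were pelleted from the medium by ultracentrifugation. The labels give neither the age of the mice nor the bone the osteoblasts came from. They do not say whether replicates came from separate mice or cultures, so p-values measure the spread between these libraries, which may be technical.

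A microRNA is cut from a hairpin precursor, whose 5′ and 3′ sides give the 5p and 3p mature arms. Bases 2 to 8 of a mature arm, the seed, pair with target mRNAs. In mouse, Mir199a-2 and Mir214 are processed from one long noncoding RNA, Dnm3os, which lies antisense within the dynamin gene Dnm3, is switched on by the mesenchymal factor TWIST1 and is needed for normal skeletal growth. miR-214-3p is known as a brake on bone formation, in part by repressing Atf4, a transcription factor of osteoblasts. miR-199a has been studied in cartilage, bone and fibrosis.

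The sequences and loci show which of the 5 entries can come from that transcript. Mature sequences of 4 of the 5 entries, and that of miR-199a-3p, were found in RefSeq (GRCm38.p6) and are shown with the seed in capitals because 2 of the names share one molecule.
miR-199a-5p: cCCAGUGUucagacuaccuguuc
miR-199a-3p: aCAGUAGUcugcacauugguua
miR-199b-3p: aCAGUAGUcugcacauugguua
miR-214-5p: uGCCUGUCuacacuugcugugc
miR-214-3p: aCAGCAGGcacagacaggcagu
The miR-199a-3p and miR-199b-3p sequences are identical, so reads of this arm cannot be assigned to one hairpin, and the entry named miR-199b-3p is called the miR-199 3p arm below. Whether it holds all reads of that sequence, or some were split off or placed elsewhere by the counting, was not tested. miR-199b-5p is named only, so whether the counting keeps its reads apart from those of miR-199a-5p was not tested. The seeds of the 3p arms of miR-199 and miR-214 differ, although 6 of the first 8 bases of these mature sequences match. The only other RefSeq mouse miRNA with the miR-214-3p seed is miR-761, which matched no entry name.

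The 2 hairpins of the Dnm3os transcript are shown with both mature arms in capitals.
Mir199a-2: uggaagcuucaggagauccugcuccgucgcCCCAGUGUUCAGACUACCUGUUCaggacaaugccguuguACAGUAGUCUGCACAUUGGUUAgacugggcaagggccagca
Mir214: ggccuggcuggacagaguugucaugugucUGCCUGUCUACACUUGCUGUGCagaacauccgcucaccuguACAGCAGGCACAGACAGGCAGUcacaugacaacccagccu
Mir199a-2 lies at chr1:162217814-162217923 and Mir214 at chr1:162223368-162223477, both on the plus strand of GRCm38, with 5444 bases between them. Both fall inside exons of Dnm3os in GENCODE M21, on the strand opposite to Dnm3. Mir199a-1 lies at chr9:21496495-21496564 on the minus strand, inside an intron of Dnm2 and antisense to it, and has the same mature arms as Mir199a-2. Mir199b lies at chr2:32318460-32318569 on the plus strand, inside an intron of Dnm1 and antisense to it. The miR-214 arms therefore have 1 annotated hairpin, which is in Dnm3os, whereas miR-199a-5p has 2 and the miR-199 3p arm has 3. Which genome build the authors used is not stated in the labels, and these positions rest on the miRNA names.

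The values are RPM (reads per 1000000 reads assigned to entries of the table). They sum to 1000000 in each library, so that when one abundant entry takes more reads the others must show less. The deposited table gives no read totals. Every value was a whole multiple of a step of 0.5 times the lowest non-zero value of its library, within 0.001 of a step. If 1 step is 1 read, the reads assigned to entries of the table numbered 1608276 to 1838239 per knockout library and 1352045 to 1627705 per control library. The table holds small RNAs only, so the level of Sirt6 mRNA was not checked. Entries with only a numeric ID took 52.8% to 62.8% of reads in knockout and 43.1% to 50.0% in control libraries, and knockout replicate 3 had the largest share. Named miRNAs outside a list of possible ribosomal or transfer RNA fragments, called ordinary named miRNAs here, took 36.0% ± 5.47 in knockout and 49.4% ± 2.80 in control libraries (mean ± SD, n = 3 each). The possible fragments themselves took 7.43% ± 0.536 in knockout and 3.02% ± 1.07 in control libraries, without overlap, and 7.43% in knockout libraries without replicate 3. The part of this composition in the results below was not tested.

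miR-199a-5p was the main member. It had 24330, 22921 and 14099 RPM in the knockout libraries, against 36025, 28942 and 30890 RPM in the control libraries. Every knockout library lay below every control library, and knockout replicate 3 lay far below the other knockout libraries. In rank it was between 7th and 9th among the named entries in knockout libraries and 5th in each control library. The miR-199 3p arm, under the name miR-199b-3p, had 5491, 5985 and 2543 RPM in the knockout libraries, against 8676, 7996 and 8691 RPM in the control libraries. The groups again did not overlap, and the control libraries were close together, with a coefficient of variation of 4.70%, against 39.8% in the knockout group.

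miR-199b-5p, the arm that comes from Mir199b alone by name, had 296, 347 and 228 RPM in the knockout libraries, against 487, 387 and 431 RPM in the control libraries, without overlap. miR-214-3p, the major arm of Mir214, had 543, 494 and 215 RPM in the knockout libraries, against 911, 740 and 771 RPM in the control libraries, also without overlap. Its partner miR-214-5p was scarce, with 14.9, 13.0 and 7.07 RPM in the knockout libraries, against 14.4, 19.2 and 17.2 RPM in the control libraries, and here the groups overlapped. These values of miR-214-5p stand for 13 to 28 steps per library, so counting error is largest for this arm.

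**Figure D1:**
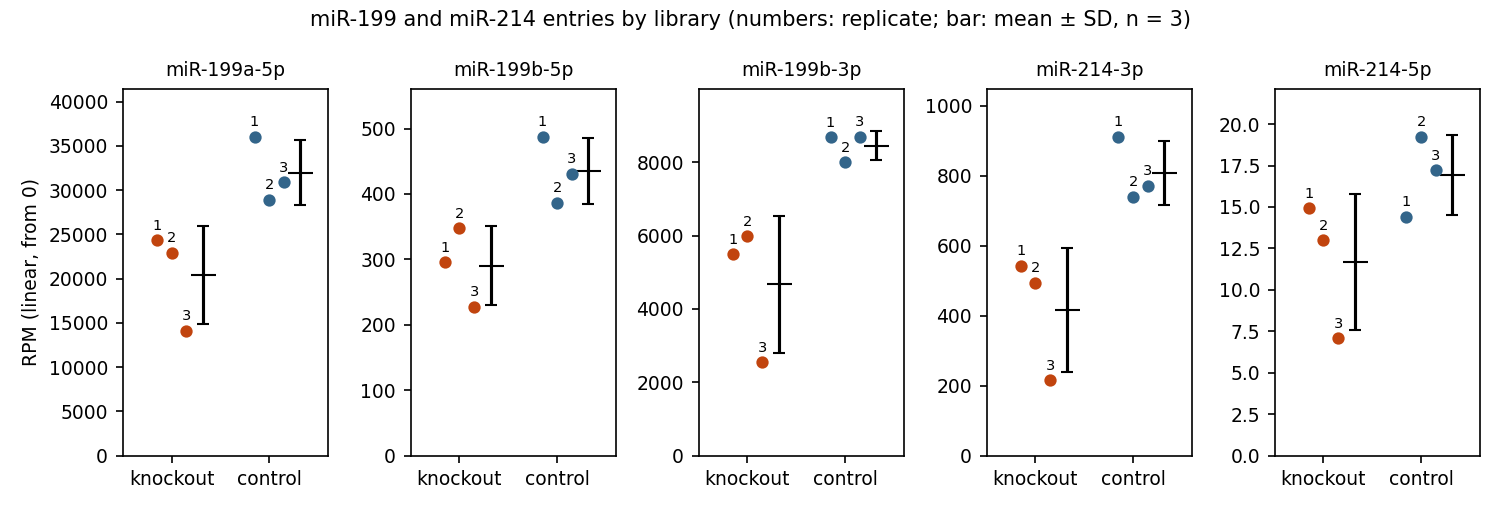
RPM of each miR-199 and miR-214 entry (linear axes from 0, a separate scale per panel) in the 3 knockout and the 3 control libraries, with replicate numbers beside the points and the mean ± SD at the right of each group. The groups overlap only for miR-214-5p, and knockout replicate 3 is the lowest library in every panel.

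From high to low, the order of the levels was miR-199a-5p, miR-199b-3p, miR-214-3p, miR-199b-5p and miR-214-5p in 5 of 6 libraries. miR-214-3p and miR-199b-5p changed places in knockout replicate 3. Their levels were 417 ± 177 and 290 ± 59.9 RPM in knockout and 807 ± 91.0 and 435 ± 50.4 RPM in control libraries (mean ± SD, n = 3 each). Within libraries, the ratio of miR-199b-5p to miR-214-3p was 0.545, 0.703 and 1.06 in the knockout group, against 0.535, 0.523 and 0.559 in the control group. The other neighbours in the order were far apart in every library. miR-199a-5p made up 79.6% ± 2.75 of the summed RPM of the 5 entries in knockout and 76.6% ± 1.32 in control libraries. The miR-199 3p arm made up 17.6% ± 2.63 in knockout and 20.4% ± 1.36 in control libraries.

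The comparison of the genotypes asks whether these miRNAs differ between vesicles of Sirt6-deficient and control osteoblasts. Relative to all reads assigned to entries of the table, miR-214-3p and the miR-199 3p arm fell in the knockout vesicles. The other 3 entries had negative values that did not pass the test. miR-214-3p averaged 417 ± 177 RPM in knockout and 807 ± 91.0 RPM in control libraries (log2 fold change -1.05 ± 0.29 SE, limma adjusted p = 0.0118). miR-199b-3p averaged 4673 ± 1861 RPM in knockout and 8455 ± 397 RPM in control libraries (log2 fold change -0.95 ± 0.31 SE, limma adjusted p = 0.0456). The test was limma on log2(RPM + 1) over 1114 entries, with p-values adjusted over all of them by Benjamini-Hochberg, and a call is an adjusted p under 0.05. By this rule 30 entries, or 2.69% of those tested, were lower and 24, or 2.15%, were higher.

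The 3 entries without a call had log2 fold changes of -0.68 ± 0.35 for miR-199a-5p (limma adjusted p = 0.2495), -0.60 ± 0.29 for miR-199b-5p (limma adjusted p = 0.2299) and -0.55 ± 0.48 for miR-214-5p (limma adjusted p = 0.5999), each ± SE. miR-199a-5p averaged 20450 ± 5545 RPM in knockout and 31952 ± 3659 RPM in control libraries. miR-199b-5p averaged 290 ± 59.9 RPM in knockout and 435 ± 50.4 RPM in control libraries, and miR-214-5p averaged 11.7 ± 4.09 RPM in knockout and 16.95 ± 2.42 RPM in control libraries (SD, n = 3 each). Without knockout replicate 3 the log2 fold changes were -0.43 for miR-199a-5p, -0.43 for miR-199b-5p and -0.26 for miR-214-5p. The 2 entries with a call were 3p arms, and they had the largest falls among the 5 entries.

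Both calls depended on the variance model and on single libraries. limma drew its SE from the trend over all entries. From the spread of the entry's own libraries the SE would be 0.43 for miR-214-3p and 0.39 for miR-199b-3p, above the limma SEs. For miR-199a-5p, miR-199b-5p and miR-214-5p it would be 0.27, 0.20 and 0.32, below the limma SEs of 0.35, 0.29 and 0.48. Without that trend neither of the 2 called entries passed (limma adjusted p = 0.436 for each). The split into called and uncalled entries thus depended on this model, and it does not test 3p against 5p arms. The call of miR-199b-3p was lost whichever of the 6 libraries was left out, and that of miR-214-3p in 4 of 6 settings, namely without any one of the control replicates (limma adjusted p = 0.182, 0.183 and 0.350) and without knockout replicate 2 (limma adjusted p = 0.0568). Over all tested entries the lower calls also fell, from 30 to 3, 0 and 0 without control replicates 1, 2 and 3. They fell to 18, 6 and 15 without knockout replicates 1, 2 and 3. Without a control replicate the fold changes moved little, to between -1.11 and -0.96 for miR-214-3p and between -0.99 and -0.93 for miR-199b-3p. Without knockout replicate 3 the values were -0.63 for miR-214-3p (limma adjusted p = 0.0396) and -0.56 for miR-199b-3p (limma adjusted p = 0.0925).

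The falls must be read beside those of other miRNAs. Over all 1114 tested entries the median log2 fold change was -0.27, and over the 268 ordinary named miRNAs averaging 10 RPM or more it was -0.59, beside -0.68 over the 5 members. All 5 members lay below 0, as did 60.1% of all tested entries and 80.2% of the 268. limma called 2 of the 5 lower, and 10.4% of the 268. Of those 268 miRNAs, 31 had a value below that of miR-214-3p, 47 below that of miR-199b-3p, 118 below that of miR-199a-5p, 133 below that of miR-199b-5p and 148 below that of miR-214-5p. The knockout libraries lay wholly below the control libraries for 4 of the 5 members, and for 19.3% of all tested entries and 53% of the 268. The 3 entries without a call thus sat near the middle of ordinary miRNAs.

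**Figure D2:**
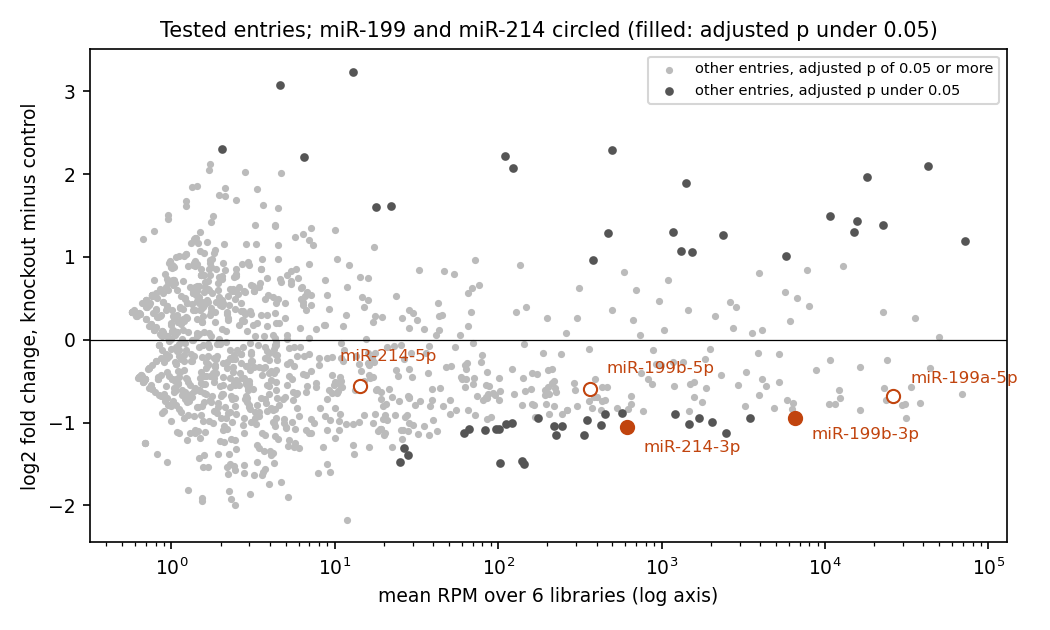
Log2 fold change (knockout minus control) of the 1114 tested entries against their mean RPM over 6 libraries on a log axis, with the 5 members circled in red and filled where the limma adjusted p was under 0.05. miR-214-3p at -1.05 and miR-199b-3p at -0.95 lie toward the lower edge of the abundant entries, most of which are below 0.

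The summed RPM of the 5 entries was 30675, 29760 and 17092 in the knockout libraries, against 46114, 38084 and 40800 in the control libraries. The groups did not overlap, and the ratio of their means was 0.620 (exact 2-sided permutation p = 0.1, below which a design of 3 against 3 cannot go). As a share of ordinary named miRNAs, the sum was 8.13%, 7.38% and 5.73% in knockout libraries, against 8.76%, 7.97% and 8.53% in control libraries. On this scale the groups overlapped, and the ratio of means was 0.841 (exact permutation p = 0.2), or 0.921 without knockout replicate 3.

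With the libraries rescaled to ordinary named miRNAs, all 5 entries stayed below 0 and none passed the test. The values were -0.59 for miR-214-3p (limma adjusted p = 0.261), -0.48 for miR-199b-3p (limma adjusted p = 0.393), -0.21 for miR-199a-5p, -0.13 for miR-199b-5p and -0.13 for miR-214-5p. On this scale 34 entries were higher and 1, or 0.0898% of those tested, was lower over the whole table, with a median of 0.07. miR-214-3p then had 1438, 1226 and 720 per 1000000 ordinary named reads in the knockout libraries, against 1730, 1549 and 1612 in the control libraries, and miR-199b-3p had 14548, 14842 and 8525 in the knockout libraries, against 16484, 16743 and 18174 in the control libraries. For these 2 entries the groups still did not overlap, with the knockout lower, as for 8.62% of tested entries and 24.6% of the 268 ordinary miRNAs. For the other 3 entries the groups overlapped.

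**Figure D3:**
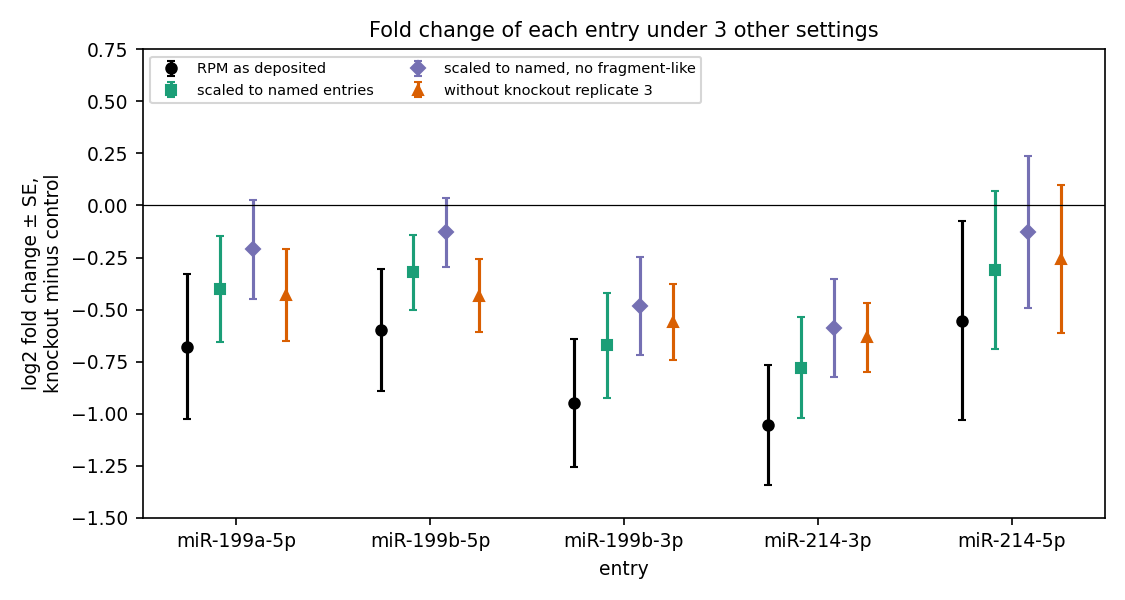
Log2 fold change ± SE (limma, knockout minus control) of the 5 entries with the RPM as deposited, with the libraries rescaled to all named entries, with rescaling to named entries without the possible fragments, and without knockout replicate 3. Every point lies below 0, and miR-214-3p moves between -1.05 and -0.59 across the settings shown.

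A ratio of 2 entries within a library does not depend on what the library was scaled to, so co-variation was measured by such ratios. For 4 of the 5 entries the groups formed separate clusters, and a correlation over the pooled libraries was therefore not computed. The ratio of the miR-199 3p arm to miR-214-3p was 10.1, 12.1 and 11.8 in the knockout libraries, against 9.53, 10.8 and 11.3 in the control libraries. The log2 ratio had an SD of 0.13 over the 6 libraries, although the log2 levels themselves had SDs of 0.68 for miR-199b-3p and 0.75 for miR-214-3p. The ratio of miR-199a-5p to miR-199b-5p, the 5p arms of different loci, was 82.2, 65.98 and 61.9 in the knockout libraries, against 73.9, 74.8 and 71.6 in the control libraries, with an SD of the log2 ratio of 0.14. For neither ratio did the groups separate. Over all 6 libraries these were the smallest SDs of the 10 pairs, but the order rested on knockout replicate 3. Without it the SD was 0.13 for the 3p arms and 0.11 for the 5p arms, and also 0.11 for miR-199a-5p to miR-214-3p and for miR-199b-5p to miR-199b-3p.

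The ratio of miR-199a-5p to miR-214-3p, both of which can come from Dnm3os, was 44.8, 46.4 and 65.6 in the knockout libraries, against 39.6, 39.1 and 40.1 in the control libraries. Here the groups did not overlap, and the log2 ratio had an SD of 0.02 over the control libraries and 0.30 over the knockout libraries. The mean log2 ratio was 0.38 higher in the knockout group (exact permutation p = 0.1, or 0.333 after Benjamini-Hochberg adjustment over 10 pairs). Without knockout replicate 3 it was 0.20 higher and the groups still did not overlap. The exact permutation p was 0.2, the lowest that 2 libraries against 3 can give. Of the 10 pairs, the groups failed to overlap for this one and for the 2 arms of miR-214, and no adjusted p was below 0.333. How often the groups fail to overlap over pairs of other entries was not computed, so this count has no background to be read against. With 3 libraries against 3 the exact p cannot go below 0.1, so no pair could have passed 0.05.

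**Figure D4:**
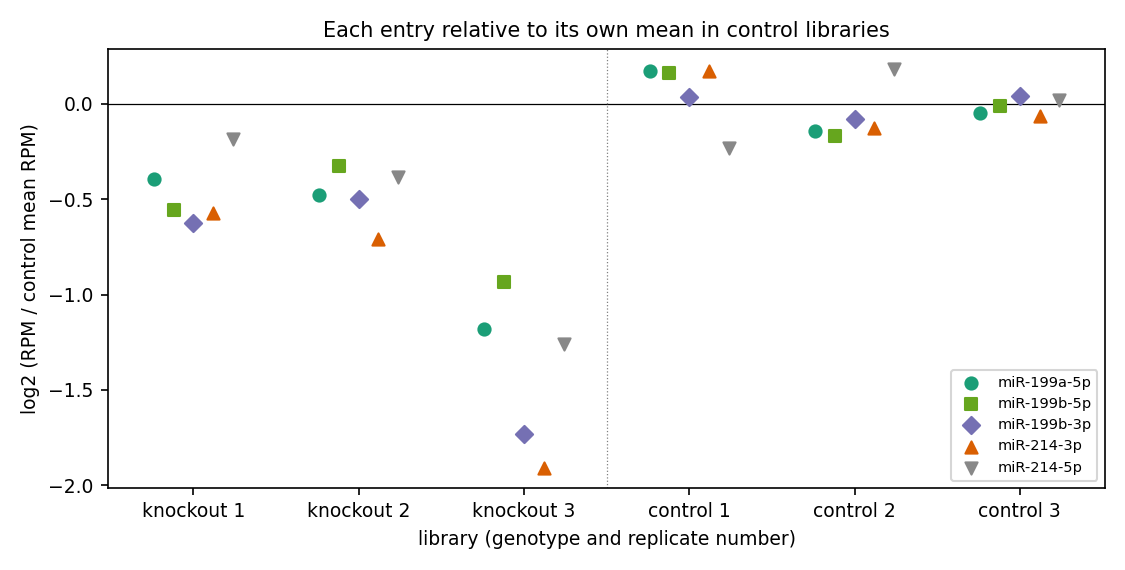
Each entry's RPM relative to its own mean in the control libraries (log2 scale), for the 3 knockout and the 3 control libraries. In knockout replicate 3 the miR-214-3p and miR-199b-3p points lie together below the miR-199a-5p, miR-199b-5p and miR-214-5p points, and in the other libraries the 5 entries lie closer to each other.

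Hairpins with both arms listed and averaging 10 RPM or more per arm numbered 36, and limma on the log2 ratio of 5p to 3p called 2 of them, or 5.56%, neither from miR-199 nor miR-214. Mir214 gave mostly its 3p arm: the ratio of miR-214-3p to miR-214-5p was 36.4, 38.0 and 30.4 in the knockout libraries, against 63.2, 38.5 and 44.8 in the control libraries. Every knockout value lay below the control values, though knockout replicate 2 and control replicate 2 were nearly equal. The share of the 36 hairpins whose groups separate in this way was not computed. The log2 ratio of 5p to 3p was 0.50 ± 0.29 SE higher in the knockout group (limma adjusted p = 0.474 over 36 hairpins), and 0.31 higher without control replicate 1. The excess of 3p over 5p of miR-214 was the fifth highest of the 36 hairpins.

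If the miR-199b-3p entry holds all reads of the shared 3p sequence, the 5p arm was the major one of miR-199. The summed 5p arms, miR-199a-5p and miR-199b-5p, stood to the 3p arm as 4.48, 3.89 and 5.63 in the knockout libraries, against 4.21, 3.67 and 3.60 in the control libraries. The groups overlapped, and the mean log2 ratio was 0.27 higher in the knockout group (exact permutation p = 0.2). Without knockout replicate 3 it was 0.13 higher (exact permutation p = 0.4). Taken by name alone, miR-199b would appear to give mostly its 3p arm, with a log2 ratio of 5p to 3p of -4.11 over the 6 libraries, but the 3p entry shares its sequence with miR-199a-3p. The knockout minus control difference of that named pair was 0.35 ± 0.29 SE (limma adjusted p = 0.678), and 0.13 without knockout replicate 3.

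miR-214-3p, miR-199a-5p and the miR-199 3p arm, which can all come from Dnm3os, were not each other's closest match, with or without knockout replicate 3. miR-214-5p lay under the cut of 100 RPM and was left out. The miR-199 arms also have hairpins outside Dnm3os, so production from a shared transcript was not tested. Among the other 127 named entries that averaged 100 RPM or more, ordered by the SD of the log2 ratio over the 6 libraries, the miR-199 3p arm was in place 6 for miR-214-3p and miR-199a-5p was in place 43, and without knockout replicate 3 they were in places 28 and 17. The closest to miR-214-3p was miR-151-5p (SD 0.08), or miR-455-3p without that library. For the miR-199 3p arm, miR-214-3p was in place 11, and the closest was miR-143-3p (SD 0.06), a miRNA of smooth muscle and fibroblasts. Without knockout replicate 3 miR-214-3p was in place 42 and the closest was miR-26b-5p. For miR-199a-5p, the closest was let-7e-5p (SD 0.06), miR-199b-5p was in place 28 and miR-214-3p in place 83. Without knockout replicate 3 these were places 25 and 23, and the closest was miR-25-3p. These are descriptions over 6 libraries that share their totals.

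The 6 named entries most like the summed members by the same measure were let-7e-5p (SD of the log2 ratio 0.06), let-7d-3p (0.06), miR-27a-3p (0.07), miR-92a-3p (0.08), miR-27b-3p (0.08) and miR-26a-5p (0.08), out of 124 candidates with a median SD of 0.21. let-7e-5p averaged 1222 ± 324 RPM in knockout and 1921 ± 157 RPM in control libraries, and miR-26a-5p averaged 23182 ± 6429 RPM in knockout and 38720 ± 3676 RPM in control libraries (SD, n = 3 each). None of these 6 passed the limma threshold, and their log2 fold changes ran from -0.84 for miR-92a-3p to -0.69 for let-7e-5p. miR-199a-5p made up 77.6% of the summed members over the 6 libraries, so this ranking mostly reflects likeness to that entry. The ranking was not redone without knockout replicate 3.

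Other miRNAs of mesenchymal cells were set beside the members. Of 28 tested, 4 were lower and 0 higher by limma, 26 lay below 0, and the median log2 fold change was -0.76. Over all tested entries 2.69% were lower, 60.1% lay below 0 and the median was -0.27. Over the 268 ordinary named miRNAs 10.4% were lower, 80.2% lay below 0 and the median was -0.59, and over the 46 that averaged 1000 RPM or more the median was -0.67. The 4 calls were miR-29a-3p, a repressor of collagen genes (-1.12), miR-143-5p (-1.01), miR-22-3p (-0.95) and miR-145a-3p (-0.89), the last from the hairpin next to miR-143. The 4 most abundant were miR-99a-5p (-0.76), miR-143-3p (-0.94), miR-125b-5p (-0.79) and miR-21a-5p (-0.24), none of which passed. Above 0 were miR-218-5p (1.37, averaging 4.32 RPM) and miR-145a-5p (0.11), and neither passed. miR-145a-5p, the other arm of the hairpin of miR-145a-3p, averaged 1070 ± 97.1 RPM in knockout and 997 ± 187 RPM in control libraries. With libraries rescaled to ordinary named miRNAs 0 of the 28 were lower (median -0.30), and with 1 library left out the count was 0 without any one of the control replicates, 2 without knockout replicate 1, and 1 without knockout replicate 2 or 3.

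Markers of other cell types were scarce beside the summed members, though the blood cell sum was of the order of miR-214-3p and miR-199b-5p. The endothelial, muscle and epithelial sums exceeded miR-214-5p in every library. In bulk vesicles, fewer vesicles from a cell type and less RNA per vesicle cannot be told apart. Blood cell miRNAs summed to 263 to 485 RPM in knockout and 630 to 888 RPM in control libraries, with 2 of 7 tested lower and 0 higher by limma, beside 2.69% lower over all tested entries and 10.4% over the ordinary named miRNAs. Endothelial miRNAs summed to 23.4 to 52.2 RPM in knockout and 85.1 to 105 RPM in control libraries, with 0 of 4 tested past the threshold. The median log2 fold change was -1.03 for the blood list, with 7 of 7 below 0, and -1.29 for the endothelial list, with 4 of 4 below 0. It was -0.68 over the members and -0.59 over the 268 ordinary named miRNAs, of which 80.2% lay below 0. The median was 0.03 over 6 tested epithelial and -0.11 over 2 neural miRNAs, and the 1 tested muscle miRNA was at -0.56. Epithelial miRNAs summed to 21.2 to 39.8 RPM in knockout and 26.4 to 28.8 RPM in control libraries, and muscle miRNAs to 40.3 to 57.6 RPM in knockout and 71.0 to 85.1 RPM in control libraries, with 0 tested members past the threshold in either list. Neural miRNAs summed to 8.47 RPM or less in every library, and miR-124-3p, which marks neurons, matched no entry name, nor did miR-486a-5p of red blood cells or miR-133b-3p of muscle. The blood, endothelial and muscle sums were thus lower in the knockout, as were the members, and their part in the members' values was not tested.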

How the data were processed

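Small RNA was sequenced from vesicles of apoptotic osteoblasts in 6 libraries, 3 knockout and 3 control, grouped by the sample labels. The authors deposited 1 table of RPM values, normalised to the total of each library. The submitters' processing notes name fastp and edgeR without a role or version. An aligner, an annotation release and a build were not given in the sources used here.

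Entries that reached 1 RPM in 3 or more libraries entered limma 3.58.1 in R 4.3.3 on log2(RPM + 1) with a mean-variance trend, 2-sided. Fold changes refer to log2(RPM + 1), where low entries appear to change less than they do. Arm ratios were tested with limma on log2((5p RPM + 1)/(3p RPM + 1)), and single values with exact permutation tests (scipy 1.17.1). The scripts were tested on simulated data with known changes. Count tests were not run, because the lowest non-zero value of each library was 2 steps, so complete raw counts could not be recovered. Sequences are from RefSeq and positions from GENCODE M21. The members and the lists of miRNAs were chosen with earlier results of these data known. Entries were named if they were members, shared a member's seed, were among the 6 most like the summed members, or were the 4 most abundant or the called miRNAs of the mesenchymal list. The closest match of a single member was named after its values were seen.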

Additional observations from a re-analysis of the deposited data

How the results depend on the processing

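All 5 members kept a negative log2 fold change under each of the 17 alternatives run. The ranges were -1.30 to -0.59 for miR-214-3p, which passed in 10 of 17, and -1.18 to -0.48 for miR-199b-3p, which passed in 4 of 17. miR-199a-5p, miR-199b-5p and miR-214-5p passed in 0 of 17. Counts of calls moved more. Against 24 higher and 30 lower entries, the lower count was 15 with log2(RPM + 0.5), 15 without a filter, 60 with at least 10 RPM, 5 with scaling to named entries, 1 with scaling to ordinary named miRNAs, 8 with median centring, 16 with quantile normalization and 17 with a robust prior, and the higher counts of the scaled fits were 27, 34, 32 and 32. Without a mean-variance trend limma called 0 higher and 0 lower, with 55 and 75 at an unadjusted p under 0.05. With 1 library left out, the counts ran from 0 to 26 higher and from 0 to 18 lower. The lower counts were 3, 0 and 0 without control replicates 1, 2 and 3, and 18, 6 and 15 without knockout replicates 1, 2 and 3, with 53 and 84 at an unadjusted p under 0.05 in the fit without control replicate 3. The cause was not tested.

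With the replicate number as a replicate block, 19 entries were higher and 11 lower, miR-214-3p passed (limma adjusted p = 0.0304) and miR-199b-3p did not (limma adjusted p = 0.0872). Same-numbered libraries did not deviate together (r = 0.0055, -0.024 and 0.011 across entries), and none correlated best with its own number.

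With 1 library left out, the ratio of the summed members ran from 0.562 to 0.725. The arm difference ran from 0.31 to 0.65 for miR-214 and from 0.13 to 0.40 for the miR-199 family. The difference of the log2 ratio of miR-199b-5p to miR-199a-5p, 0.08 with all libraries, ran from -0.00289 to 0.20 and turned its sign without knockout replicate 3. The SDs of the log2 ratios, and the places of the closest matches, without knockout replicate 3 were computed after seeing the data. Count tests were not run.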
